A study of Homo sapiens with 18 samples.

Results

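Complement and acute phase proteins are represented here by 9 genes, chosen by name with earlier results of these data known: LCN2, SAA1, SAA2, CFB, C3, C1R, C1S, SERPINA3 and SERPING1. They are 9 of 18404 genes measured, and 13 of the 32321 probe sets on the array were annotated to them. The cells were MCF10A, a non-tumorigenic breast epithelial line, profiled on 18 whole-transcript arrays (6 groups of 3). Every culture carried a hairpin lentivirus (multiplicity 5) and had undergone 4 days of puromycin selection (1.5 µg/ml) and at least 7 days of rest. They were then transfected transiently with cDNA and kept for 5 days in a medium that contains estrogen. With the non-targeting hairpin shNT, 1 group received control cDNA (the control arrays), 1 YAP/TAZ cDNA, 1 ESR1 cDNA and 1 YAP/TAZ and ESR1 cDNA together (the joint arrays). The other 2 groups received control cDNA after the LATS1 hairpin shLATS1B or the hairpins labelled shLATS1+2. LATS1 and LATS2 are kinases that hold back the transcriptional coactivators YAP and TAZ, and ESR1 encodes estrogen receptor alpha.

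Complement is a cascade of plasma proteases that tags and lyses targets. In the classical pathway C1r activates C1s, in the alternative pathway factor B joins C3b to form the enzyme that cleaves more C3, and both routes meet at C3. Acute phase proteins are secreted in inflammation, mostly by liver but also by epithelia, under interleukin-6, interleukin-1, NF-kB, STAT3 and C/EBP factors. In mammary epithelium lipocalin 2 and C3 are known as secreted products of inflamed or involuting tissue.

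Each value is a deposited log2 intensity, so a difference of 1 is a doubling, and means are given ± SD over 3 arrays. The arrays of a group correlated with r between 0.993 and 0.998, and since the labels do not call them separate cultures, the p-values reflect array-to-array spread, which may be technical. LATS1 averaged 8.86 in the control arrays, 7.66 with shLATS1B and 7.76 in the arrays labelled shLATS1+2, but LATS2 averaged 7.82 in the latter against 7.73 in the control arrays and so was not lower. YAP1 (10.79 against 10.84) and WWTR1, the gene of TAZ (9.44 against 9.57), were not higher in the arrays labelled YAP/TAZ than in the control arrays. In the joint arrays YAP1 averaged 10.88, not different from control (limma adjusted p = 0.79), and WWTR1 9.99, higher by 0.42 (adjusted p = 0.0015). WWTR1 was higher by 0.43 with shLATS1B too (adjusted p = 0.0015), where control cDNA was given. ESR1 averaged 5.53 in the control arrays, 6.47 in the arrays labelled ESR1, 6.03 in the joint arrays and 6.37 and 6.40 in the 2 knockdown groups. Where these probe sets lie relative to the transfected cDNAs is not given in the sources used here, so groups are named by their labels throughout. The first principal component, 47.3% of the variance, put the joint and knockdown arrays (9.83 to 22.7) opposite the control, YAP/TAZ and ESR1 arrays (-23.0 to -10.3). Of all genes 7.37% separated these sides without overlap, and among the 9 genes this held for SERPINA3. Array weights estimated from the fit were lowest for ESR1 array 1 (0.213) and shLATS1+2 array 3 (0.43).

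The cells matched the epithelial label. KRT5, a basal keratin, lay between 12.13 and 12.79, EPCAM between 10.46 and 11.35 and CDH1, which encodes E-cadherin, between 10.27 and 10.90. Some markers of hepatocytes and leukocytes were dim. ALB, encoding albumin, did not exceed 4.72, the pan-leukocyte gene PTPRC 4.51 and the T cell gene CD3E 4.97. All were below 5.21, the level under which 30% of genes lay on average. Of 13 leukocyte markers measured, 5 or 6 lay below that level in each group. Others were bright in every array: LCP1 read 10.56 to 11.39, CD14 9.01 to 11.14 and CD68 9.21 to 10.66. Of 14 hepatocyte markers measured, 9 or 10 lay below that level in each group, and their mean per array ran from 5.11 to 5.26.

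Promoter sequence is shown for LCN2, CFB and C1R, which rose together, and for SERPINA3, which fell. The 250 bases before the annotated start come from RefSeq on GRCh38.p14, where 4 of the 9 genes had an entry; SAA1, SAA2, C3, C1S and SERPING1 are named only. Capitals mark matches, on either strand, to GGGA and CC with any 4 bases between them (kappaB-like), TTCNNNGAA (STAT), TTGCNNAA (C/EBP), GAAA and GAAA with any 2 bases between them (interferon response), GGAATG (TEAD, the partner of YAP and TAZ) or GGTCA and TGACC with any 3 bases between them (estrogen response). The windows are chr9:128149203-128149452 (plus strand) for LCN2, chr6:31945845-31946094 (plus) for CFB, chr12:7092446-7092695 and chr12:7091894-7092143 (both minus) for 2 starts of C1R, and chr14:94612141-94612390 (plus) for SERPINA3.
LCN2: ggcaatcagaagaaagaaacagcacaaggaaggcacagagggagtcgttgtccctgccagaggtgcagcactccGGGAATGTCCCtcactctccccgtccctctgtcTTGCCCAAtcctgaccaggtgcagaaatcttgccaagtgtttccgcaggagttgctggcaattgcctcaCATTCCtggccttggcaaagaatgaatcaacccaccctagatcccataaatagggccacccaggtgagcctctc
CFB: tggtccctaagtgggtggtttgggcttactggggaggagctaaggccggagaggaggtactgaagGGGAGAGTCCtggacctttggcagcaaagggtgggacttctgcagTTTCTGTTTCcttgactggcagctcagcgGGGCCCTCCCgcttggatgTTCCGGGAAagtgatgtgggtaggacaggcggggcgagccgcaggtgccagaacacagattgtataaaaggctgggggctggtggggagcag
C1R, start 1: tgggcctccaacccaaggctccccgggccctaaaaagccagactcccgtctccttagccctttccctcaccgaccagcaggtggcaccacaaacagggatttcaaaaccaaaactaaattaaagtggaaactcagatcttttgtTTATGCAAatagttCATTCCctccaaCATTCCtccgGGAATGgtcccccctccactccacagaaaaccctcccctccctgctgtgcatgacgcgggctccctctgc
C1R, start 2: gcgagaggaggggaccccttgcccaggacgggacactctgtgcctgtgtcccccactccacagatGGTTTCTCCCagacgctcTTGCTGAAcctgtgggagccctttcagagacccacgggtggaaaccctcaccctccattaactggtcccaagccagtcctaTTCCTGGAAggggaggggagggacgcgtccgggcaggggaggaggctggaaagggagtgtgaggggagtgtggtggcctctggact
SERPINA3: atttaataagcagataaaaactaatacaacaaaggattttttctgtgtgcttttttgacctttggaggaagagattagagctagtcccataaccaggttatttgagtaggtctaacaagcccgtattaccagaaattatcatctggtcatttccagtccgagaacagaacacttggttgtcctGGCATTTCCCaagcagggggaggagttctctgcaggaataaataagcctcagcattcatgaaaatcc
LCN2 held a kappaB-like match on each strand, GGGAATGTCC and the overlapping GGAATGTCCC, which also overlap a GGAATG, plus a C/EBP match TTGCCCAA and CATTCC, the reverse complement of GGAATG. CFB held the kappaB-like matches GGGAGAGTCC and GGGCCCTCCC, the STAT match TTCCGGGAA and TTTCTGTTTC, which matches the reverse complement of the interferon response letters. Start 1 of C1R had 3 TEAD matches and a C/EBP match, and start 2 had 1 kappaB-like, 1 STAT and 1 C/EBP match. SERPINA3 had the kappaB-like GGCATTTCCC alone. Such matches are common: of 35116 promoter windows of the same length, 22.6% held the kappaB-like letters, 6.57% STAT, 9.05% C/EBP, 3.02% interferon response, 11.9% TEAD and 0.0399% estrogen response, the last without a match in these 5 windows. A match is a description of letters and not a bound site.

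The genes fell into 3 patterns across the 6 groups. LCN2, CFB, C1R and C1S were higher than in the control arrays in every other group, and highest in the joint arrays. By the probe set used for each gene, SAA1 and SAA2 were higher with either cDNA alone, close to the control level in the joint arrays, and lower in both knockdown groups. SERPINA3 was high in the control and YAP/TAZ arrays, intermediate with ESR1 and low in the other 3 groups. C3 and SERPING1 moved little.

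**Figure D1:**
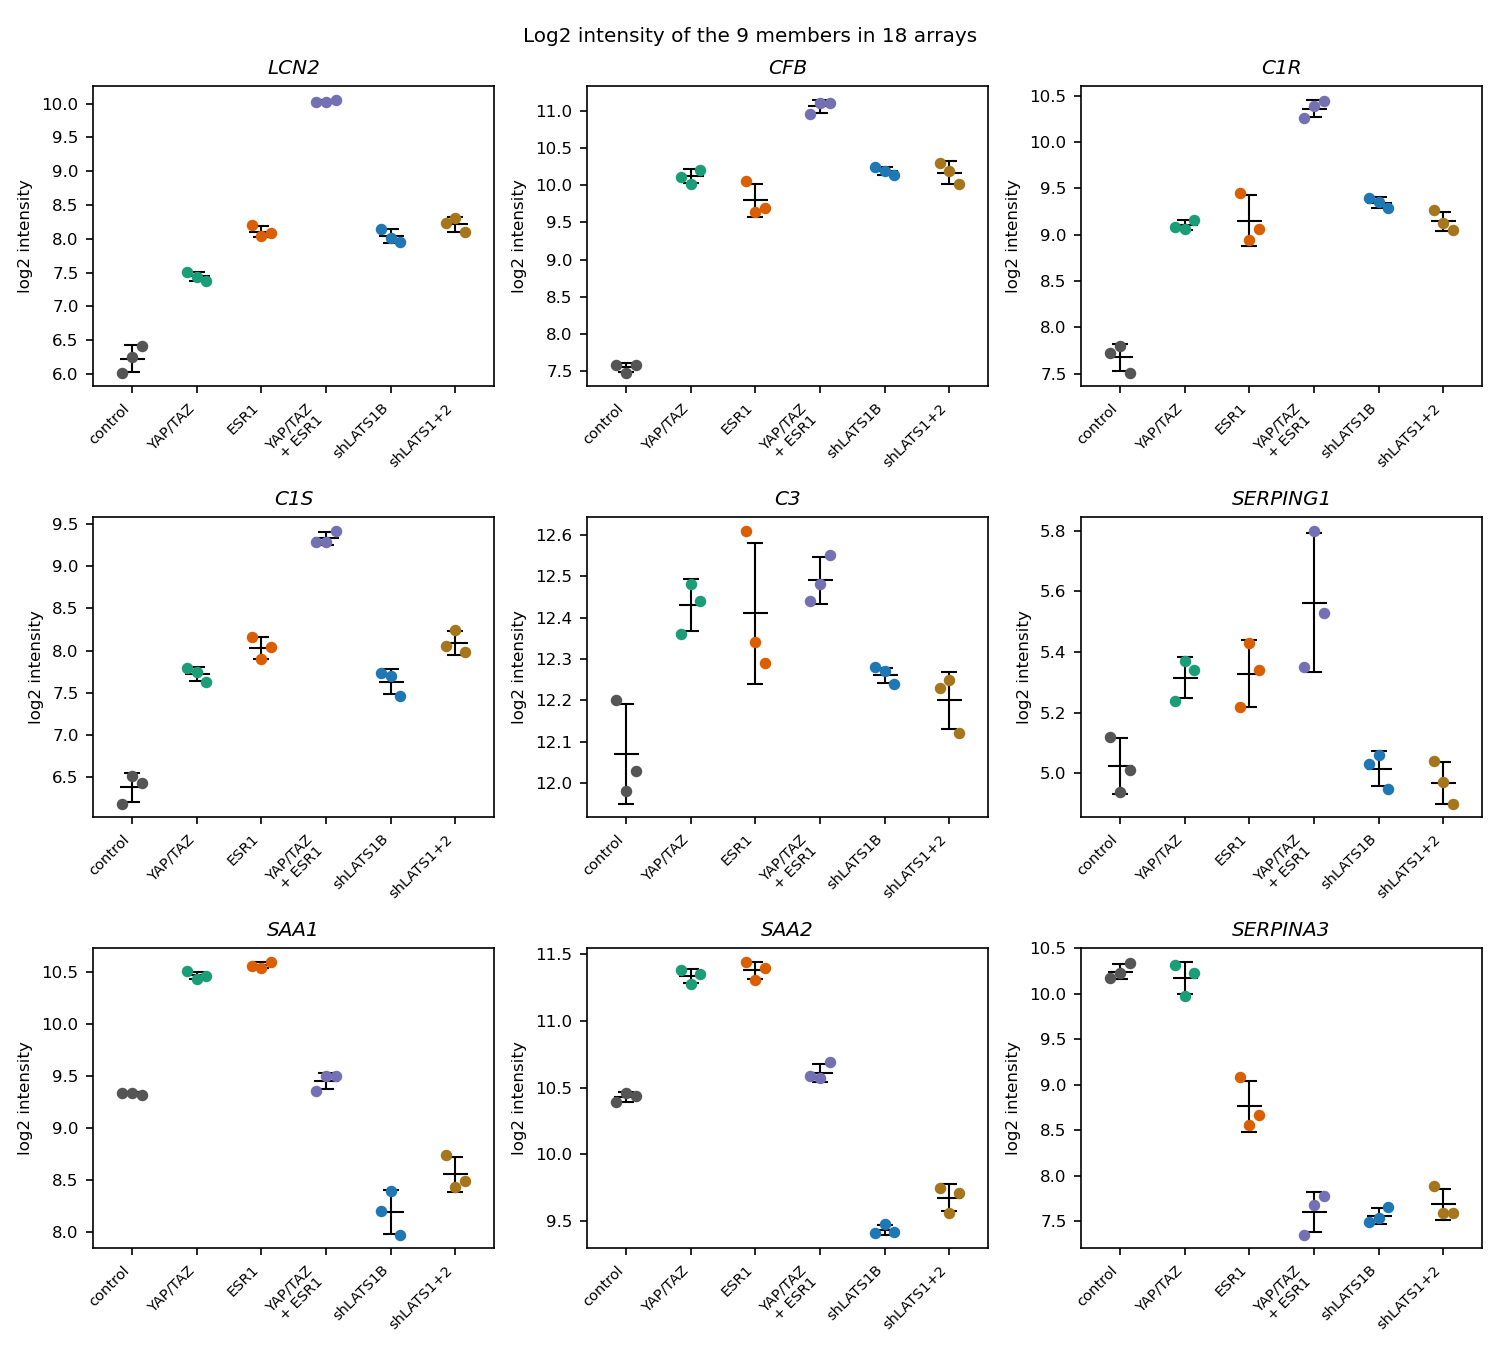
Log2 intensity (vertical axes, scaled per gene) of the 9 genes in each of the 18 arrays, with 1 panel per gene and 1 column per group. Points are arrays, and the bar and whiskers are mean and SD of 3 arrays. LCN2, CFB, C1R and C1S peak in the joint arrays, SAA1 and SAA2 in the YAP/TAZ and ESR1 arrays, and SERPINA3 in the control and YAP/TAZ arrays.

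C1R and C1S, neighbouring genes that encode the proteases of the classical pathway, rose in all 5 comparisons with the control arrays. C1R read 7.72, 7.80 and 7.51 in the control arrays, 9.08, 9.06 and 9.16 with YAP/TAZ, and 9.45, 8.94 and 9.06 with ESR1. It read 10.26, 10.39 and 10.44 in the joint arrays, 9.40, 9.35 and 9.29 with shLATS1B and 9.26, 9.12 and 9.05 with shLATS1+2. Every control array was thus below every other array, every joint array above, and the remaining 4 groups occupied a band of 8.94 to 9.45. The changes of C1R against control were 1.43 ± 0.10 (SE; 2.69-fold, limma adjusted p = 1.2e-07) with YAP/TAZ, 1.48 (2.79-fold) with ESR1, 2.69 (6.45-fold, adjusted p = 7.8e-12) with both, 1.67 (3.18-fold) with shLATS1B and 1.47 (2.77-fold) with shLATS1+2. C1S read 6.19, 6.52 and 6.44 in the control arrays, 7.80, 7.75 and 7.63 with YAP/TAZ, and 8.16, 7.90 and 8.04 with ESR1. It read 9.28, 9.29 and 9.42 in the joint arrays, 7.74, 7.70 and 7.46 with shLATS1B and 8.06, 8.25 and 7.98 with shLATS1+2. Control and joint arrays again bounded the range without overlap. The change of C1S was 1.34 ± 0.097 (SE; 2.54-fold, limma adjusted p = 9.6e-08) with YAP/TAZ, 1.65 (3.13-fold) with ESR1, 2.95 (7.71-fold, adjusted p = 9.2e-13) with both, 1.25 (2.38-fold) with shLATS1B and 1.71 (3.27-fold) with shLATS1+2.

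CFB, the precursor of the catalytic subunit of the alternative pathway convertase, had the largest rise of the 9 genes in 4 of the 5 comparisons with the control arrays. It read 7.59, 7.48 and 7.59 in the control arrays, 10.11, 10.02 and 10.21 with YAP/TAZ, and 10.05, 9.64 and 9.69 with ESR1. It read 10.96, 11.11 and 11.11 in the joint arrays, 10.24, 10.19 and 10.14 with shLATS1B and 10.30, 10.19 and 10.01 with shLATS1+2. The control arrays stood more than 2 log2 units below all others. The change was 2.56 ± 0.094 (SE; 5.91-fold, limma adjusted p = 2e-11) with YAP/TAZ, 2.24 (4.74-fold) with ESR1, 3.51 (11.4-fold, adjusted p = 6.8e-14) with both, 2.64 (6.23-fold) with shLATS1B and 2.62 (6.13-fold) with shLATS1+2. Among the 4 groups between the control and joint arrays, the steps between neighbours in level did not pass the test: ESR1 to YAP/TAZ 0.32 (adjusted p = 0.16), YAP/TAZ to shLATS1+2 0.052 (0.80) and shLATS1+2 to shLATS1B 0.024 (0.94). Without ESR1 array 1, the highest of its group, CFB was lower with ESR1 than with YAP/TAZ by a called -0.45 (adjusted p = 0.0028).

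C3, the component on which the pathways converge, changed by far less. It averaged 12.07 ± 0.12 in the control arrays, 12.43 ± 0.062 with YAP/TAZ, 12.41 ± 0.17 with ESR1, 12.49 ± 0.057 in the joint arrays, 12.26 ± 0.019 with shLATS1B and 12.20 ± 0.069 with shLATS1+2 (n = 3 each). Individual control arrays read 12.20, 11.98 and 12.03, so control array 1 touched the lower knockdown arrays. The rises of 0.35 ± 0.075 (SE; 1.28-fold, limma adjusted p = 0.0068) with YAP/TAZ, 0.34 (adjusted p = 0.0044) with ESR1 and 0.42 (1.34-fold, adjusted p = 0.00036) with both were called. The changes of 0.19 with shLATS1B (adjusted p = 0.083) and 0.13 with shLATS1+2 (adjusted p = 0.26) were not. With only the ESR1 and control arrays in the fit, the ESR1 change had an adjusted p of 0.11. The shLATS1B change was called without ESR1 array 1 (limma adjusted p = 0.019), without control array 1 (0.025) and with array weights (0.005). It was also called without both ESR1 array 1 and shLATS1+2 array 3 (0.015). With array weights the shLATS1+2 change was called too (0.029).

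SERPING1, which encodes the inhibitor that inactivates C1r and C1s, was dim, with a mean of 5.20 over all arrays. It averaged 5.02 ± 0.092 in the control arrays, 5.32 ± 0.068 with YAP/TAZ, 5.33 ± 0.11 with ESR1, 5.56 ± 0.23 in the joint arrays, 5.02 ± 0.058 with shLATS1B and 4.97 ± 0.069 with shLATS1+2 (n = 3 each). The joint arrays were the most spread, at 5.35, 5.80 and 5.53. The joint change of 0.54 ± 0.089 (SE; 1.45-fold) was called (limma adjusted p = 0.00017), as was the ESR1 change of 0.30 (adjusted p = 0.025), and the YAP/TAZ change of 0.29, of nearly the same size, was not (adjusted p = 0.066). The ESR1 call did not hold when control array 2 (adjusted p = 0.10) or 3 (0.062), or ESR1 array 2 (0.12) or 3 (0.072), was left out. It was also lost with arrays centred on their medians (0.078) and with only the compared arrays (0.068). The YAP/TAZ change was called without ESR1 array 1 (adjusted p = 0.044) or joint array 1 (0.025) or 2 (0.016), with array weights (0.022), with robust eBayes (0.046) and with only the compared arrays (0.027). At this signal, log2 differences can understate changes in RNA.

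LCN2, the secreted lipocalin that binds bacterial siderophores and so withholds iron, had the widest range of group means of the 9 genes, 3.81 log2 units or 14.01-fold. It read 6.02, 6.25 and 6.42 in the control arrays, 7.51, 7.44 and 7.38 with YAP/TAZ, and 8.20, 8.04 and 8.08 with ESR1. It read 10.03, 10.03 and 10.06 in the joint arrays, 8.15, 8.01 and 7.96 with shLATS1B and 8.24, 8.31 and 8.10 with shLATS1+2. The joint arrays were all more than 1.5 log2 units above the next highest array, and the ESR1 and knockdown arrays overlapped. In order, control, YAP/TAZ and then the trio of shLATS1B, ESR1 and shLATS1+2 were separate steps, of 1.22 (adjusted p = 5.7e-08) and 0.60 (adjusted p = 6.2e-05), while steps inside the trio (0.062 and 0.11) did not pass the test. The joint change was 3.81 ± 0.084 (SE; limma adjusted p = 6e-15), against 1.22 (2.33-fold) with YAP/TAZ and 1.88 (3.67-fold) with ESR1 alone.

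SAA1 and SAA2 encode the inducible serum amyloid A apolipoproteins that join high-density lipoprotein in the acute phase. SAA1 read 9.34, 9.34 and 9.32 in the control arrays, 10.51, 10.44 and 10.46 with YAP/TAZ, and 10.56, 10.54 and 10.60 with ESR1. It read 9.36, 9.50 and 9.50 in the joint arrays, 8.20, 8.39 and 7.97 with shLATS1B and 8.74, 8.43 and 8.49 with shLATS1+2. The single cDNA arrays all lay above the control arrays and the knockdown arrays all below, with the joint arrays at most 0.2 log2 units above control. SAA1 rose by 1.14 ± 0.089 (SE; 2.20-fold, limma adjusted p = 2.6e-07) with YAP/TAZ and 1.23 (2.35-fold) with ESR1. It fell by 1.15 (2.21-fold, adjusted p = 4.9e-08) with shLATS1B and fell by 0.78 (1.72-fold) with shLATS1+2, and the joint difference of 0.12 was not called (adjusted p = 0.39). SAA2 read 10.39, 10.46 and 10.44 in the control arrays, 11.38, 11.28 and 11.35 with YAP/TAZ, and 11.44, 11.31 and 11.40 with ESR1. It read 10.59, 10.57 and 10.69 in the joint arrays, 9.41, 9.48 and 9.42 with shLATS1B and 9.75, 9.56 and 9.71 with shLATS1+2. The order of the groups was that of SAA1. SAA2 rose by 0.91 ± 0.055 (SE; 1.88-fold, limma adjusted p = 9.9e-09) with YAP/TAZ and 0.96 (1.94-fold) with ESR1, and fell by 1.00 (1.99-fold) with shLATS1B and fell by 0.75 (1.69-fold) with shLATS1+2. Its joint rise of 0.19 was called (adjusted p = 0.016), but not without control array 1 (0.058), without joint array 3 (0.086) or after median centring (0.059). The 2 genes are near-identical neighbours, so their probe sets may share signal and are not independent measurements.

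SERPINA3 encodes alpha-1-antichymotrypsin, an acute phase inhibitor of the neutrophil protease cathepsin G. It read 10.17, 10.22 and 10.33 in the control arrays, 10.31, 9.97 and 10.23 with YAP/TAZ, and 9.08, 8.55 and 8.66 with ESR1. It read 7.35, 7.68 and 7.77 in the joint arrays, 7.49, 7.53 and 7.65 with shLATS1B and 7.88, 7.59 and 7.59 with shLATS1+2. The 9 joint and knockdown arrays lay between 7.35 and 7.88, below every array of the other groups. The fall was 6.42-fold (-2.68 ± 0.13 SE, limma adjusted p = 2.2e-10) with shLATS1B, 5.86-fold with shLATS1+2, 6.21-fold with both cDNAs (adjusted p = 2e-10) and 2.78-fold with ESR1 (adjusted p = 9.3e-07). With YAP/TAZ alone the difference was -0.07 ± 0.13 (adjusted p = 0.88).

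**Figure D2:**
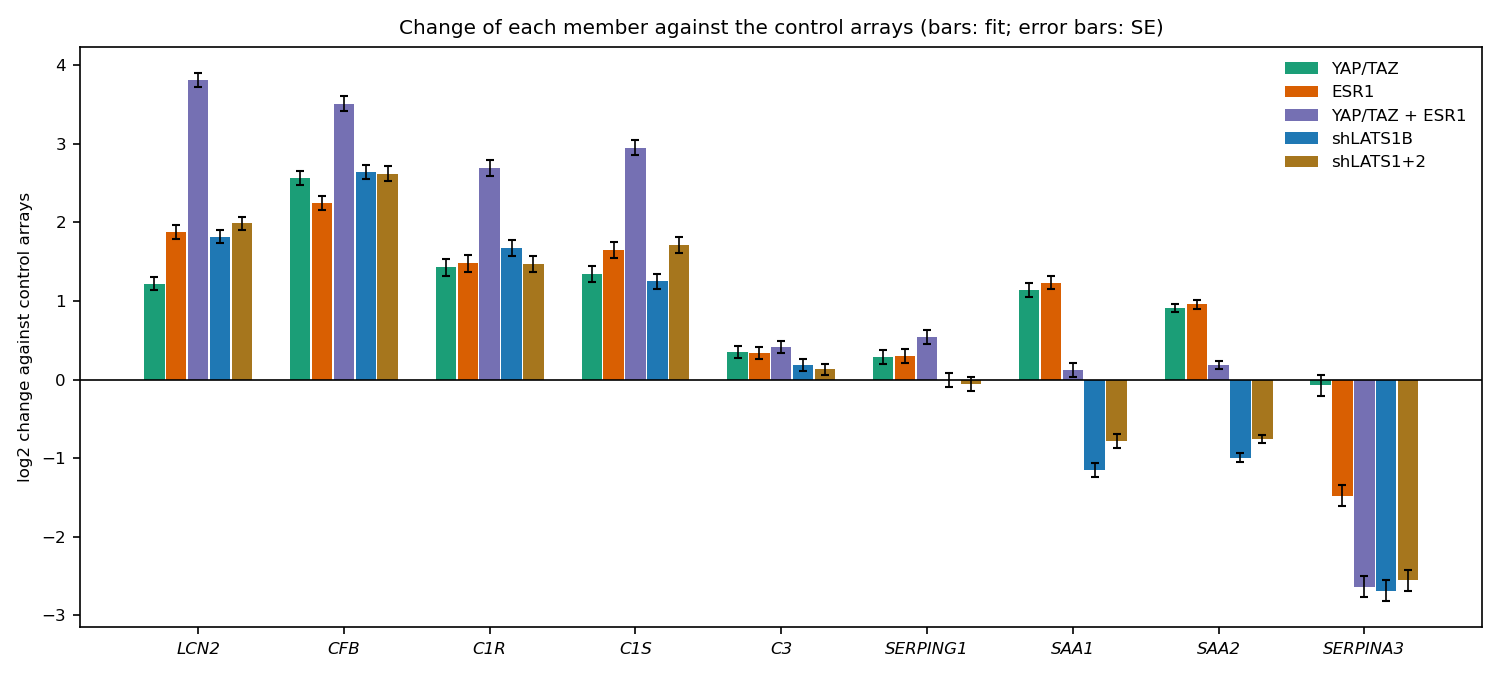
Log2 change of each gene against the control arrays (vertical axis) for the 5 other groups (bar colours), with bars for the fitted change and whiskers for its SE. CFB bars lie between 2.24 and 3.51, SAA1 and SAA2 change sign between cDNA and knockdown groups, and SERPINA3 reaches -2.68.

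Since the 9 genes were chosen with earlier results of these data known, their counts are descriptions and no test of enrichment. Counted by comparison, 4 of the 9 genes rose and 3 fell with shLATS1B, where 24% of all genes tested were called (12.4% higher, 11.6% lower). With shLATS1+2, 4 rose and 3 fell, where 24.8% of genes were called (11.8% higher, 13% lower). In both knockdown groups the risers were LCN2, CFB, C1R and C1S, and SAA1, SAA2 and SERPINA3 fell. The median of the 9 was 0.19 and 0.13, against -0.0059 and -0.008 over all genes, and says little since the genes split into opposite directions. Between the 2 knockdown groups, 0 of 9 passed (0.321% of all genes did, 0.141% higher and 0.179% lower), although 3 had an unadjusted p under 0.05: C1S was higher with shLATS1+2 by 0.46 (limma adjusted p = 0.062), SAA1 by 0.37 (0.14) and SAA2 by 0.24 (0.10). C1S was called without control array 1 or without ESR1 array 1, SAA1 without shLATS1B array 2 and SAA2 without shLATS1+2 array 2 (limma adjusted p from 0.029 to 0.034), and all 3 with array weights.

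With YAP/TAZ, 7 of the 9 genes rose, where 7% of all genes were called (3.16% higher, 3.84% lower), and SERPINA3 and SERPING1 did not pass. With ESR1, 8 rose and SERPINA3 fell, where 18.9% of genes were called (7.04% higher, 11.9% lower). Of the genes called with ESR1, 37.1% were higher, and 21.8% after the arrays were centred on their medians. The median of the 9 was 1.1 with YAP/TAZ and 1.2 with ESR1. Compared directly, LCN2 was higher with ESR1 than with YAP/TAZ by 0.66 ± 0.084 (SE, limma adjusted p = 0.0013) and SERPINA3 lower by -1.41 ± 0.13 (adjusted p = 6.2e-05), and the other 7 did not pass, where 0.603% of genes were called (0.315% higher, 0.288% lower). In a fit of these 6 arrays alone both had an adjusted p of 0.053.

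In the joint arrays, 7 rose against control and SERPINA3 fell, where 29.4% of all genes were called (14.7% in each direction), and SAA1 did not pass. Against YAP/TAZ alone, LCN2, CFB, C1R and C1S were higher and SAA1, SAA2 and SERPINA3 lower, 7 of 9 where 22.7% of genes were called (12.3% higher, 10.5% lower). The same 7 passed in the same directions against ESR1 alone, where 29.1% were called (16.2% higher, 12.9% lower). Of the called genes 55.6% were higher, and 67.8% after median centring. The added step over YAP/TAZ was 2.59 (6.02-fold) for LCN2, 1.60 (3.04-fold) for C1S, 1.26 (2.40-fold) for C1R and 0.95 (1.93-fold) for CFB. SAA1 was 2.03-fold and SAA2 1.65-fold lower in the joint arrays than with YAP/TAZ, and 2.17-fold and 1.70-fold lower than with ESR1.

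Whether the joint change equals the sum of the separate ones was tested as an interaction on the log2 scale. It passed for 5 of the 9 genes, 1 above the sum and 4 below, where 19.1% of all genes were called (11.4% above, 7.68% below). Of the called genes 59.7% were above, and 72.7% after median centring. LCN2 changed by 3.81 jointly against a sum of 3.10, an interaction of 0.71 ± 0.12 (SE, limma adjusted p = 0.00048). SAA1 changed by 0.12 against 2.37 (-2.25 ± 0.13, adjusted p = 2.4e-09) and SAA2 by 0.19 against 1.86 (-1.68 ± 0.078, adjusted p = 2.6e-10). CFB rose by 3.51 against 4.81 (-1.30 ± 0.13, adjusted p = 3.5e-06), and SERPINA3 changed by -2.64 against -1.55 (-1.09 ± 0.19, adjusted p = 0.00064). C1R (2.69 against 2.90) and C1S (2.95 against 2.99) were closer to their log2 sums, with interactions of -0.22 ± 0.15 and -0.04 ± 0.14 that did not pass (adjusted p = 0.36 and 0.89). The interactions of C3 (-0.27 ± 0.11, adjusted p = 0.085) and SERPING1 (-0.06 ± 0.13, adjusted p = 0.83) did not pass either. That of C3 was called without control array 1 (-0.34, adjusted p = 0.039) or without ESR1 array 3 (-0.34, adjusted p = 0.045). These values depend on the scale. On linear intensities, an alternative with no test that was added after the values had been seen, the joint level of CFB exceeded the sum by 320.4 ± 120.1 (SE) units, the opposite sign. C1R exceeded its sum by 398.9 ± 82.2 and C1S by 254 ± 25.8 units on that scale, so their closeness to the sum holds for log2 values. LCN2 stayed above its sum (676 ± 14.2, SE) and SAA1 (-1591 ± 36.1) and SAA2 (-2315 ± 99.5) below it on that scale. SERPINA3 was also below its sum, but with an SE that is large beside the difference (-191.5 ± 105.2).

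**Figure D3:**
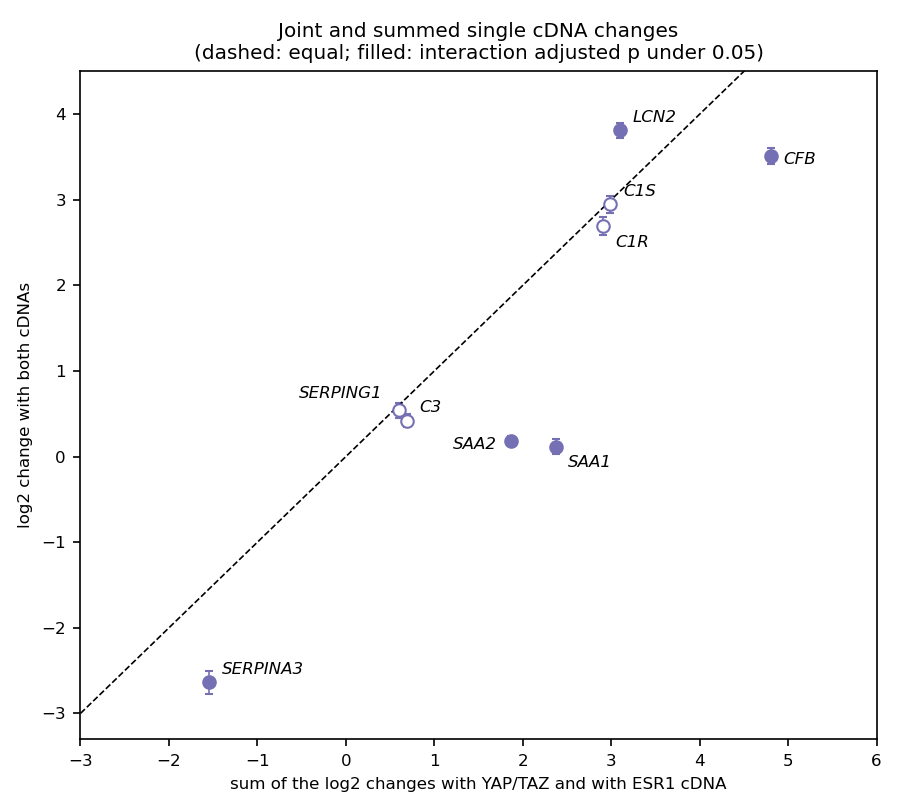
Log2 change in the joint arrays (vertical axis, whiskers SE) against the sum of the YAP/TAZ and ESR1 changes (horizontal axis), 1 point per gene. The dashed line marks equality and filled points an interaction past the adjusted threshold. LCN2 lies above the line, SAA1, SAA2, CFB and SERPINA3 below it, and C1R and C1S near it.

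The joint arrays were also set against the knockdown arrays, which share no arrays with them. Against shLATS1B, 7 of 9 genes were higher in the joint arrays, where 11.1% of all genes were called (5.81% higher, 5.3% lower), and against shLATS1+2, 8 of 9, where 19.8% were called (10.2% higher, 9.62% lower). LCN2 was 3.98-fold and 3.53-fold higher, C1S 3.24-fold and 2.36-fold, and SAA1 2.40-fold and 1.86-fold. SERPINA3 was at 7.60 in the joint arrays, 7.55 with shLATS1B and 7.69 with shLATS1+2 and neither difference, 0.048 and -0.084 with an SE of 0.13, passed the test (adjusted p = 0.92 and 0.77). C3 was higher than with shLATS1+2 by 0.29 (adjusted p = 0.012), a call lost without joint array 3 (0.061) or shLATS1+2 array 3 (0.067). Its difference of 0.23 from shLATS1B was not called (adjusted p = 0.065), but was without control array 1 (0.046) or ESR1 array 1 (0.012) or 3 (0.049), with array weights (0.0013), with robust eBayes (0.044) and with only the compared arrays (0.011). C3 gave no called difference between the knockdown groups (-0.06, adjusted p = 0.77).

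The knockdown arrays were set against the single cDNA arrays as well. Against YAP/TAZ, 1 gene was higher and 4 lower with shLATS1B, where 18.8% of all genes were called (10.7% higher, 8.12% lower), and 2 higher and 5 lower with shLATS1+2, where 18.9% were called (9.85% higher, 9.04% lower). Against ESR1, 1 was higher and 5 lower with shLATS1B, where 25.3% were called (15.1% higher, 10.3% lower), and 1 higher and 4 lower with shLATS1+2, where 19.4% were called (11.4% higher, 8.04% lower). SAA1, SAA2, SERPINA3 and SERPING1 were lower in all 4 of these comparisons, SAA1 by the most against ESR1 (-2.38 with shLATS1B and -2.02 with shLATS1+2). LCN2 was higher than with YAP/TAZ in both knockdown groups (0.60 and 0.77), and CFB higher than with ESR1 (0.40 and 0.37). C1S was higher with shLATS1+2 than with YAP/TAZ (0.37) and lower with shLATS1B than with ESR1 (-0.40). C3 was lower with shLATS1+2 than with YAP/TAZ (-0.23), close to the threshold (limma adjusted p = 0.046). These 4 comparisons were not among those checked under the alternative settings.

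Several probe sets bore on CFB and serum amyloid A. Of 3 CFB probe sets, 8178115 was used as the brightest. Probe set 8179351 kept its order of groups with smaller rises, of 2.05 with YAP/TAZ, 1.77 with ESR1 and 2.94 with both, and 2.31 and 2.20 in the knockdown groups. The log2 interaction was -0.87 for 8179351 (limma adjusted p = 0.0011), against -1.30 for 8178115. The third, 8118345, averaged 4.35 to 4.83 by group, under the level of dim genes, and no change was called (adjusted p from 0.59 to 0.99 against control). A dimmer SAA2 probe set, 7946983, rose by 0.79 with YAP/TAZ (adjusted p = 0.024) and 1.04 with ESR1 (adjusted p = 0.0016), yet its differences of -0.24 with shLATS1B and -0.18 with shLATS1+2 were not called (adjusted p = 0.50 and 0.64), and its joint rise was 0.61 (adjusted p = 0.030). Its differences between the joint arrays and YAP/TAZ (-0.18, adjusted p = 0.67) or ESR1 (-0.43, adjusted p = 0.13) were not called either. Of the 2 probe sets annotated to SAA2 alone, only the brighter one was therefore called lower in the knockdown groups, and in the joint arrays than with either cDNA. Probe set 7946986, annotated to both SAA1 and SAA2, was dim, was called higher with ESR1 (0.64, adjusted p = 0.0038), and was lower in the joint arrays than with YAP/TAZ (-0.53, adjusted p = 0.0097) or ESR1 (-0.71, adjusted p = 0.001). Its changes with YAP/TAZ (0.46, limma adjusted p = 0.064), shLATS1B (-0.23, 0.31) and shLATS1+2 (-0.13, 0.61) were not called. These p-values were adjusted over all probe sets.

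**Figure D4:**
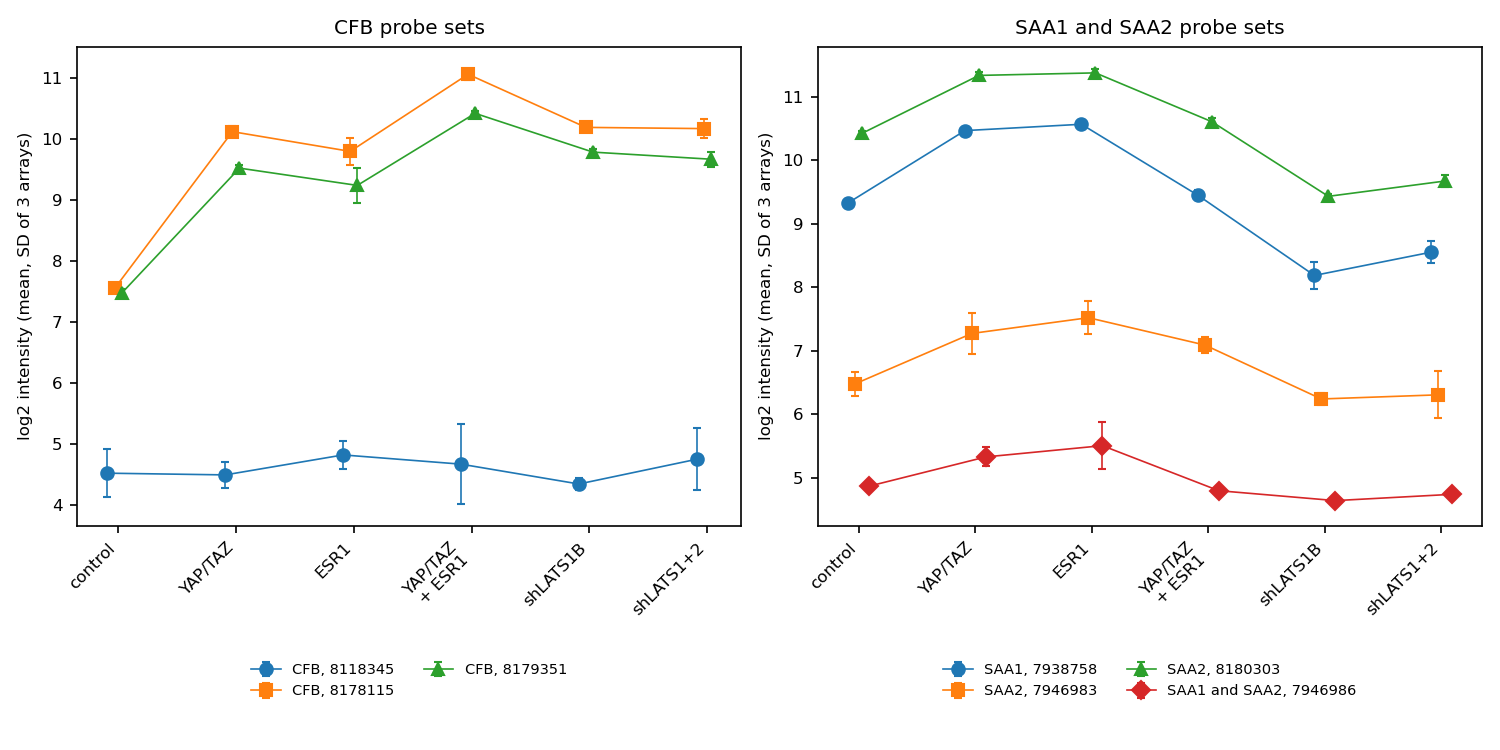
Mean log2 intensity (vertical axis, whiskers SD of 3 arrays) by group for every probe set of CFB (left) and of SAA1 and SAA2 (right), where lines join points of 1 probe set. CFB 8178115 and 8179351 share the order of groups, with smaller changes for 8179351, while 8118345 stays between 4.35 and 4.83. All 4 serum amyloid A probe sets have their highest mean with ESR1, but none had a called difference between ESR1 and YAP/TAZ.

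The other gene lists were chosen with earlier results of these data known too. Their counts are read, as descriptions, against the share of all genes called: 24% with shLATS1B, 24.8% with shLATS1+2, 7% with YAP/TAZ, 18.9% with ESR1 and 29.4% in the joint arrays. Of 23 other complement components measured, 2 rose with shLATS1B, 2 with shLATS1+2, 1 with YAP/TAZ and 2 in the joint arrays, and with ESR1 1 rose and 1 fell. C1RL, a C1r-like protease, rose in all 5 comparisons, by 1.15 ± 0.053 (SE; limma adjusted p = 9.6e-11) with shLATS1B, 1.18 with shLATS1+2, 0.27 with YAP/TAZ, 0.30 with ESR1 and 1.26 in the joint arrays. C5, the next component after C3, fell by 0.27 with ESR1 (adjusted p = 0.033). Between 13 and 15 of the 23 lay below the level of dim genes in each group, and C2, the classical counterpart of CFB, read 4.79 to 5.14 across the 18 arrays.

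Among 21 complement regulators and receptors, 3 rose and 3 fell in each knockdown group, 1 rose and 1 fell with YAP/TAZ, 1 rose with ESR1, and 4 rose and 3 fell in the joint arrays, counts near the shares over all genes (24%, 24.8%, 7%, 18.9% and 29.4%) or, with ESR1, under it. CFI, the protease that inactivates C3b, averaged 5.20 in the control arrays, below the level of dim genes, and rose in all 5, by 1.74 ± 0.089 (SE; 3.34-fold by the fit's log2 value) in the joint arrays and by 0.62 to 0.88 in the others. CLU, encoding clusterin, rose by 2.16 with shLATS1B, 1.85 with shLATS1+2 and 1.97 in the joint arrays (limma adjusted p at most 2.7e-09), and fell by 0.54 with YAP/TAZ (adjusted p = 0.006). CD59, which blocks the membrane attack complex on the cell's own surface, fell by 0.69, 0.55 and 0.63 in these 3 groups. CD46, a membrane cofactor for CFI, rose by 0.40 with shLATS1+2 (adjusted p = 0.0046).

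Of 21 other acute phase proteins, 17 lay below the level of dim genes in every group, and CRP, encoding C-reactive protein, read 4.59 to 4.79. With shLATS1B 2 rose and 1 fell, with shLATS1+2 1 rose, with ESR1 1 fell, and in the joint arrays 1 rose and 1 fell. Each count was under the share of all genes called (24%, 24.8%, 18.9% and 29.4% in that order). SERPINA1, encoding alpha-1-antitrypsin, rose by 0.42 with shLATS1B (limma adjusted p = 0.0017) and 0.41 in the joint arrays and fell by 0.49 with ESR1. The pentraxin PTX3 rose by 0.46 and 0.44 in the knockdown groups.

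Among 25 cytokines and receptors of the acute phase response, 9 rose and 4 fell with shLATS1B (24% of all genes were called). In the shLATS1+2 arrays 8 rose and 3 fell (24.8%), and with YAP/TAZ 6 rose (7%). With ESR1 7 rose and 3 fell (18.9%), and in the joint arrays 9 rose and 2 fell (29.4%). IL6, the main inducer of the hepatic response, averaged 5.18 in the control arrays, also below the level of dim genes, and rose by 1.52 ± 0.12 (SE; limma adjusted p = 6.7e-08) in the joint arrays, 0.87 with shLATS1B, 1.44 with shLATS1+2 and 0.37 with ESR1. IL1B rose by 0.86 with shLATS1B, 0.76 with shLATS1+2, 0.80 in the joint arrays and 0.19 with YAP/TAZ. IL1A rose in all 5, by 0.45 to 0.63, and LIF, an interleukin-6 family cytokine, by 0.46 to 0.77. IL6R, the interleukin-6 receptor, fell by 0.32 in both knockdown groups (adjusted p = 3e-04).

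Of 23 transcription factors and feedback genes, 13 rose with shLATS1B (24% of all genes were called), 9 rose and 1 fell with shLATS1+2 (24.8%), 6 rose with YAP/TAZ (7%), 7 rose and 2 fell with ESR1 (18.9%), and 16 rose in the joint arrays (29.4%). Their median change was 0.27, 0.16, 0.093, 0.0044 and 0.39 in that order, against medians from -0.008 to 0.0021 over all genes. ELF3, an epithelial ETS factor, rose by 2.28 ± 0.11 (SE; limma adjusted p = 2.3e-10) with shLATS1B, 2.48 with shLATS1+2 and 1.99 in the joint arrays, with uncalled differences of 0.087 and 0.16 for YAP/TAZ and ESR1. IRF1, an interferon-responsive factor, rose in all 5, by 0.72 and 0.75 with the single cDNAs and by 1.77 to 1.91 in the other groups. REL, an NF-kB subunit, rose by 0.67, 0.69 and 0.85 in the knockdown and joint arrays, and NFKBIZ, its atypical nuclear regulator, in all 5 by 0.24 to 0.65. STAT3 rose by 0.50 with shLATS1B and 0.56 in the joint arrays, CEBPD by 0.52, 0.33 and 0.60 in the knockdown and joint arrays, CEBPB by 0.25 with YAP/TAZ and 0.21 with ESR1, and SOCS3, the feedback inhibitor of interleukin-6 signalling, by 0.27 with shLATS1B and 0.23 in the joint arrays. TNFAIP3, an inhibitor of NF-kB signalling, rose by 0.77 with YAP/TAZ, 0.66 with ESR1 and 0.21 in the joint arrays.

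**Figure D5:**
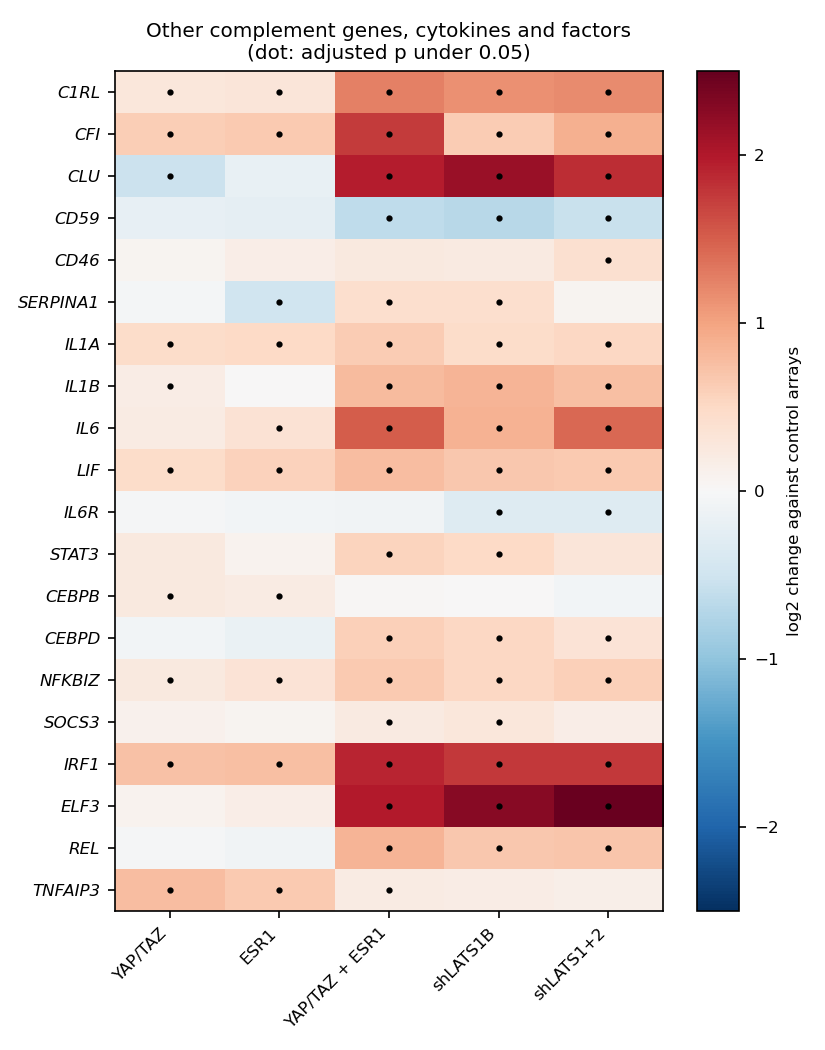
Log2 change against the control arrays (colour, red higher and blue lower) of 20 genes of the complement, cytokine and factor lists (rows) in the 5 other groups (columns), with a dot where limma's adjusted p was under 0.05. The genes were picked with their values known. C1RL, CFI, IL1A, LIF, NFKBIZ and IRF1 carry a dot in all 5 columns.

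Of 13 receptors, binding partners and target proteases, 2 rose in each knockdown group, 2 rose and 1 fell in the joint arrays and 2 fell with ESR1. The plasminogen activators PLAU and PLAT were the risers, by 0.79 and 1.37 with shLATS1B and by 1.04 and 1.00 in the joint arrays. Cell type markers were counted too. Of all genes, 24% were called with shLATS1B, 24.8% with shLATS1+2 and 7% with YAP/TAZ. The share was 18.9% with ESR1 and 29.4% in the joint arrays. Leukocyte and fibroblast counts were near or under these shares, except for leukocyte markers with YAP/TAZ. Counts of mammary epithelial markers were above them. Of 13 leukocyte markers, 3 rose in each knockdown group, with ESR1 and in the joint arrays, and 2 rose and 1 fell with YAP/TAZ, with the mean of the list per array at 6.21 to 6.32 in the control, YAP/TAZ and ESR1 arrays and 6.41 to 6.50 in the others. CD14, the lipopolysaccharide coreceptor, rose by 1.82 with shLATS1B and 2.01 in the joint arrays, and it is bright in all 18 arrays (9.01 to 11.14), unlike PTPRC. Of 10 fibroblast markers, 2 fell with shLATS1B, 3 with shLATS1+2, 1 each with YAP/TAZ and ESR1 and 2 in the joint arrays, led by DCN (-2.15 with shLATS1B). The mean of the fibroblast list per array was 5.20 to 5.46 in the control, YAP/TAZ and ESR1 arrays and 4.99 to 5.03 in the others, and COL1A1, the collagen that defines the list, read 6.28 to 6.65. Of 9 mammary epithelial markers, 3 rose and 4 fell in each knockdown group, 2 fell with YAP/TAZ, 1 rose and 3 fell with ESR1 and 4 rose and 4 fell in the joint arrays, where KRT14 fell by 2.28 and EPCAM rose by 0.63. Of the hepatocyte markers APOC3 alone was called, lower with shLATS1B, with ESR1 and in the joint arrays. The part of these markers in the results was not tested, and in bulk RNA fewer cells of a type and less RNA per cell cannot be told apart.

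The genes most like each of the 9 were ranked by Pearson's r over the 18 arrays, as a description, since the points share 6 groups and the same arrays. They were FYB1 (0.978), MDM2 (0.969) and CTSO (0.967) for LCN2, and CCL5 (0.989), LGALS3BP (0.980) and TAP1 (0.978) for CFB. For C1R they were NCSTN (0.978), DTX3L (0.976) and SLFN5 (0.974), and for C1S CFI (0.963), TLR3 (0.962) and TAPBPL (0.961). MFSD1 came first for both SAA1 (0.966) and SAA2 (0.985), followed by MCF2 and TSC22D3 for SAA1 and TXNDC11 and TMEM184C for SAA2. GABRA2 (0.972), TGFBI (0.965) and NEDD4 (0.960) were closest to SERPINA3. C3 was closest to ANKFY1 (0.950), SCNN1A (0.944) and GRINA (0.941), and SERPING1 to SMCR8 (0.906), TNFRSF9 (0.890) and STC2 (0.886).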

How the data were processed

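The deposited table holds log2 intensities of 32321 probe sets in 18 arrays. The submitters' processing notes name affy, with no version, for these log2 values; the sources used here do not state the background correction, normalization, summary method or genome build. Array medians ran from 5.494 to 5.619. Gene symbols came from the platform's annotation (19158 with 1 symbol, 1388 with several, 11775 with none), and symbols were updated through a RefSeq table of GRCh38.p14 (19128 matched). The brightest probe set stood for each of 18404 genes, which decided between several for 637 genes. No filter on dim probe sets was applied.

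All arrays entered 1 model with a mean per group (limma 3.58.1, R 4.3.3; lmFit, contrasts.fit, eBayes; 12 residual and 3.94 prior degrees of freedom). Tests were two-sided, adjusted by Benjamini-Hochberg over the genes of a comparison, and called at an adjusted p under 0.05. Comparisons with the control arrays share those arrays. The fit was tested on simulated data. The number of arrays limits the precision.

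The 9 genes and the gene lists were chosen with earlier results of these data known. Named were the 9 genes, the 5 targeted or transfected genes, 9 cytokine and factor genes in any case (IL6, IL1A, IL1B, IL6R, STAT3, SOCS3, CEBPB, CEBPD, NFKBIZ), up to 4 called genes per other list and comparison with the largest change, and 3 like genes each; other list values, marker levels and all 13 probe sets were added after values were seen. Alternatives were median centring, quantile normalization, the mean of a gene's probe sets, all probe sets, a brightness filter at percentile 30, a replicate block, a trended robust eBayes, array weights, leaving out each array and the 2 least weighted, only the arrays compared, and linear intensities.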

Additional observations from a re-analysis of the deposited data

Results flagged for a closer look

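The change with YAP/TAZ cDNA differed with and without ESR1 cDNA for 5 of the 9 genes, by the interaction test of the fit, which called 19.1% of all genes. The log2 interaction was 0.71 for LCN2, -2.25 for SAA1, -1.68 for SAA2, -1.30 for CFB and -1.09 for SERPINA3. On linear intensities the CFB value turned positive (320.4 units). By the probe set used for each gene, SAA1 and SAA2 were higher with either cDNA alone and nearly at the control level with both. The dimmer probe set of SAA2 alone, 7946983, rose by 0.61 with both (limma adjusted p = 0.03 over all probe sets). It gave no called difference between both cDNAs and either alone, and an interaction of -1.22 (adjusted p = 0.0064). Among the other complement genes the log2 interaction was 0.68 for C1RL, 0.48 for CFI and 2.69 for CLU. CLU fell with YAP/TAZ alone and rose with both. SERPINA1 (0.96), PLAU (1.41) and PLAT (0.68) had positive values. Among the cytokines it was 0.95 for IL6, 0.59 for IL1B and -0.32 for IL1A. Among the factors it was 1.74 for ELF3, 0.97 for REL, 0.83 for CEBPD, 0.44 for IRF1, -0.43 for CEBPB and -1.22 for TNFAIP3. The targeted genes differed too, with 0.64 for LATS1, 0.37 for YAP1, 0.92 for WWTR1 and -0.65 for ESR1.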

How the results depend on the processing

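Over 12 comparisons, 108 changes of the 9 genes were refitted under the alternatives chosen at the start, giving 3012 values. Direction and side of the threshold held in 2951, a call was lost in 14 and gained in 47, and 0 called changes reversed. Many of these values could not change direction. Leaving out an array of a group not compared left the log2 change as it was. So did fits that altered only the estimate of spread or the genes adjusted over. For these the direction was fixed in advance, and only the adjusted p could move. Added later, linear intensities turned the CFB interaction from -1.30 (log2) to 320.4 intensity units above the sum, and put C1R 398.9 and C1S 254 units above theirs, from log2 values of -0.22 and -0.04. Between the knockdown groups the count of 0 called became 1 with quantile normalization, 1 with brighter genes only, 1 without ESR1 array 1 and shLATS1+2 array 3, and 3 with array weights, and ran from 0 to 1 leaving out 1 array at a time. For ESR1 against YAP/TAZ the count of 2 became 4 with array weights and 0 with only the compared arrays, and ran from 2 to 3 leaving out 1 array. Counts over all genes moved by over 1.5 times in that comparison (111; 65 centred, 3123 weighted, 2 with only the compared arrays, 3513 without the 2 least weighted arrays, 48 to 2947 leaving out 1). They did so between the knockdown groups (59; 248 weighted, 33 to 110 leaving out 1), for ESR1 against control (3487; 1126 with only the compared arrays, 5776 without the 2 arrays, 2299 to 5461 leaving out 1) and for YAP/TAZ against control (1289; 1945 without the 2 arrays, 848 without YAP/TAZ array 2). They did so too for the interaction (3512; 5868 weighted, 5952 without the 2 arrays, 5607 without ESR1 array 1), the joint arrays against ESR1 (5359; 3273 with only the compared arrays), against shLATS1B (2045; 4123 weighted) and against shLATS1+2 (3644; 2145 without shLATS1+2 array 3, 2207 and 2323 without joint array 2 or 3). The cause was not tested. Dim signal limits SERPING1, 1 CFB probe set, the shared serum amyloid A probe set, the control levels of IL6 and CFI, and most other acute phase proteins.

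No pairing of the arrays by replicate number was seen: deviations of same-numbered arrays correlated between -0.694 and 0.631 (median -0.0832, 45 pairs), against a median of 0.063 for other pairs. These correlations cannot exclude that same-numbered arrays were handled together, since deviations from a mean of 3 arrays depend on each other. A fit with the replicate number as a block gave 7 called of 9 for each knockdown group and for YAP/TAZ, 9 for ESR1, 8 for both cDNAs, 0 between the knockdown groups, 2 for ESR1 against YAP/TAZ and 5 for the interaction, and changed no call among the 9 genes.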
